A study of Mus musculus with 12 samples.

Results

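Mouse embryonic fibroblasts in which the 4 reprogramming factors had been switched on for 7 days under a hairpin against Trim28 were compared with fibroblasts of the same kind in which the factors had not been switched on. The comparison used 6 of the 12 libraries of the study, 3 per group, chosen by their labels, and covered 24207 genes. All cells were C57BL/6 mouse embryonic fibroblasts that carried FUW-OSKM, a lentiviral construct for the factors Oct4, Sox2, Klf4 and Myc, and FUW-M2rtTA, the transactivator through which doxycycline switches it on. They were kept on irradiated feeder fibroblasts in ES medium for 7 days. The uninduced cells had no doxycycline and a scrambled hairpin, and the Trim28-hairpin cells had doxycycline and a hairpin against Trim28. The comparison therefore changes 2 things at once, induction and hairpin, and no uninduced cells with a Trim28 hairpin were among the groups. A further group of 3 libraries, induced cells with the scrambled hairpin, was set beside it, and the direct contrast between the hairpins in induced cells is the test of whether a gene's change depended on the hairpin. That contrast and the main one both use the Trim28-hairpin libraries, and the change of scrambled-hairpin cells shares the uninduced libraries, so these values are not independent of each other. Nothing in the labels ties the replicates to separate cultures or embryos, so p-values reflect the spread among these libraries alone, and that spread may be technical. The labels also do not say that feeder cells were removed, or that reprogramming cells were sorted from the rest. In such bulk RNA, fewer cells of a type and less RNA per cell cannot be told apart.

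Oct4, Sox2, Klf4 and Myc can turn fibroblasts into induced pluripotent stem cells. Fibroblasts first lose mesenchymal genes such as those of collagens and gain epithelial genes, and a minority later activate the endogenous pluripotency network. Trim28, also called Kap1, is a corepressor that KRAB zinc finger proteins bring to DNA. It recruits Setdb1, which methylates histone H3 at lysine 9, and HP1 proteins, which read that mark, and it is known for silencing retroelements and for keeping imprints.

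The 6 libraries held 15469056 to 16956211 counts each, and 17799 to 19270 genes had a read. After a filter on low counts, 14520 genes were tested. Levels are given as CPM, counts per 1000000 counts scaled for composition, for replicates 1, 2 and 3 in order, and changes as log2 changes with their standard error. A gene rose or fell where edgeR's quasi-likelihood test gave a Benjamini-Hochberg adjusted p under 0.05 over all tested genes, and every adjusted p below is from that test. Uninduced replicate 3 stood apart from its group: the chi-square of counts per degree of freedom was 1.96 between uninduced replicates 1 and 2 but 14.2 and 12.6 between replicate 3 and these, against 2.01 to 3.35 among the Trim28-hairpin libraries. The scrambled-hairpin induced libraries, which enter every contrast between hairpins, differed among themselves by 9.73 to 18.8 on this measure.

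Of the 14520 genes, 9676 (66.6%) changed, 4948 (34.1%) upward and 4728 (32.6%) downward. The libraries of the 2 groups did not overlap in 10573 genes (72.8%). Falls were mostly small and rises could be very large. At least 2-fold changes were called for 3365 genes (23.2%), of which 2178 (15% of those tested) were higher and 1187 (8.17%) lower. At 8-fold or more, 990 genes were higher and 27 lower, and at 32-fold or more 554 were higher and 0 lower. The median change of all tested genes was -0.012. With 66.6% of genes called, a count of members called says little by itself, and each list below is described by the size and direction of its changes beside these shares.

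**Figure D1:**
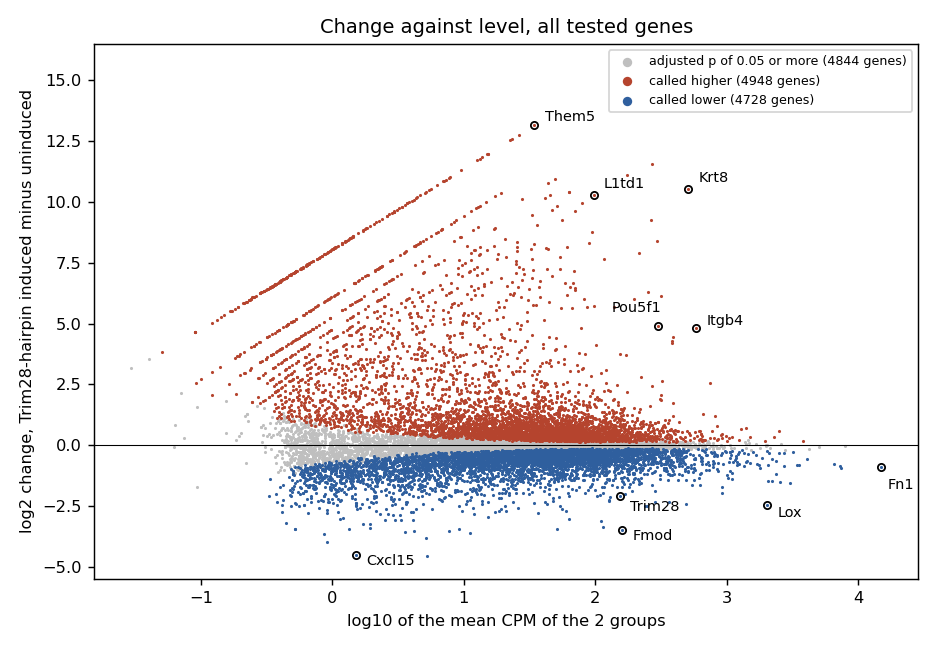
Each point is 1 of the 14520 tested genes, placed by the log10 of its mean CPM in the 2 groups (x axis) and by its log2 change, Trim28-hairpin induced minus uninduced (y axis); red and blue points are genes called higher and lower. The rises reach much further from 0 than the falls; the straight diagonal rows are genes with 0 or a few reads in uninduced cells, whose fitted changes are not well defined.

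The hairpin target itself was lower, as a check of the labels. Trim28 (chromosome 7, 13024152 to 13031035 in the deposited table) was at 261, 266 and 221 CPM in uninduced cells and at 64.1, 52.2 and 59.1 in Trim28-hairpin cells. Those libraries lay far below the others, and the fall was -2.09 ± 0.10 (SE; adjusted p = 2.36e-11). In induced cells with the scrambled hairpin Trim28 was at 362, 286 and 337 CPM. Setdb1, its partner methyltransferase, rose from 56.8, 60.1 and 65.3 to 124, 122 and 121 CPM, by 1.01 ± 0.086 (adjusted p = 2.74e-08), and was also higher than with the scrambled hairpin (0.59, adjusted p = 8.24e-05). Of the 14 genes tested in the list of Trim28, its partners and KRAB zinc finger proteins, 6 rose, 3 fell and 5 were not called. Among all tested genes 34.1% rose and 32.6% fell. Atf7ip2, a relative of the Setdb1 cofactor Atf7ip, went from 0.375, 0.643 and 0.259 to 6.16, 7.57 and 7.82 CPM. That rise of 4.06 ± 0.23 (adjusted p = 1.66e-10) was larger than in scrambled-hairpin cells, by 1.93 (adjusted p = 6.14e-07). Atf7ip itself fell, with a change of -0.27, and was also lower than with the scrambled hairpin (-0.395). Its fall from uninduced cells was not called when scaled by library size alone (adjusted p = 0.0661). Zfp809, a KRAB zinc finger protein that recruits Trim28 to retroviral sequence, rose by 0.68 ± 0.11 (adjusted p = 3.2e-05), from 11.6 to 12.04 CPM across uninduced libraries to 18.5 to 20.1. It lay at 10.3 to 13.8 CPM in scrambled-hairpin induced cells, and the difference between hairpins was 0.70 (adjusted p = 0.000144). Zfp57, the KRAB protein known for binding imprinted control regions, rose by 1.69 (adjusted p = 2.01e-11) to 97.1 to 103 CPM, with a difference between hairpins of 0.08 (adjusted p = 0.488). Of the HP1 genes, Cbx5 rose by 0.50 (adjusted p = 0.000217), Cbx3 fell by 0.33 (adjusted p = 0.00173) and Cbx1 was not called (adjusted p = 0.779). None of Fam208a, Pphln1 and Mphosph8, which encode the HUSH complex that works with Setdb1, was called (adjusted p = 0.133 to 0.666). Mphosph8 was called higher under 3 of 15 alternatives. These were library sizes alone (adjusted p = 0.0263), the 2 groups alone (0.04) and without uninduced replicate 3 (0.0142).

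All 4 reprogramming factors rose. Pou5f1, the gene of Oct4, went from 20.1, 21.0 and 17.5 to 536, 613 and 583 CPM, a rise of 4.89 ± 0.14 (adjusted p = 2.44e-14). Sox2 rose by 4.11 ± 0.21, Myc by 2.62 ± 0.12 and Klf4 by 1.91 ± 0.10, with adjusted p from 6.93e-12 to 6.24e-11. In none of the 4 did the libraries overlap. The counts do not separate vector from endogenous transcripts. Between the hairpins the 4 genes differed by 0.08 to 0.25, with adjusted p of 0.123 to 0.593, so no difference in factor level was called, which does not show that the levels were equal. With no filter on low counts the differences of Pou5f1 and Sox2, both toward the Trim28 hairpin, were called (adjusted p = 0.00965 and 0.0184).

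Most tested genes of the pluripotency network rose. Of its 42 members, 32 passed the filter on low counts, and 26 of these rose, 2 fell and 4 were not called. All 26 rises were at least 2-fold, so 26 of the 32 tested members rose that far, where 15% of all tested genes did. The median change of all 32 was 3.81 when genes unread in uninduced cells were set at their lower bound. The filter keeps genes that are high in only one group, so this median describes the genes read and not all 42. The summed level of the list went from 43.2 to 48.2 CPM in uninduced to 431 to 459 CPM in Trim28-hairpin libraries, and was 457 to 571 CPM with the scrambled hairpin.

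Several members rose from few or no reads to clear expression. L1td1, an RNA-binding protein of embryonic stem cells, went from 0.0625, 0.193 and 0.194 to 183, 211 and 188 CPM, a rise of 10.27 ± 0.23 (adjusted p = 1.8e-15). Sall4, a zinc finger factor that supports Oct4 expression, had 0 reads in the uninduced libraries and 31.6, 27.4 and 30.9 CPM in the Trim28-hairpin ones. With 3 counts over the group taken as the limit that 0 reads allow, it was at least 470-fold higher. The same bound was at least 477-fold for Tdh, the threonine dehydrogenase of mouse embryonic stem cells, at least 415-fold for Lin28a, which blocks let-7 maturation, and at least 117-fold for Nr5a2, an orphan nuclear receptor. Fgf4, the autocrine growth factor of pluripotent cells, had 1 read in uninduced and 664 in Trim28-hairpin libraries, a ratio of 627 (95% exact counting interval 112 to 24800). Zscan10, a stem cell zinc finger factor, had 1 and 443 reads, a ratio of 418 (74.7 to 16600). None of these 7 genes was called between the hairpins, with differences of -0.24 to 0.41 and adjusted p of 0.079 to 0.894. For Nr5a2 and Tdh the result moved with 1 library: without scrambled-hairpin replicate 2 Nr5a2 differed by 0.51 (adjusted p = 0.0431), and without scrambled-hairpin replicate 1 Tdh differed by -0.32 (adjusted p = 0.0472). Nanog, the factor most tied to the pluripotent state, went from 0.125, 0.193 and 0.453 to 4.83, 5.26 and 7.59 CPM, a rise of 4.49 ± 0.42 (adjusted p = 8.76e-08). It was at 5.32 to 9.26 CPM with the scrambled hairpin, an overlapping range (adjusted p = 0.343).

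Other members rose less in Trim28-hairpin than in scrambled-hairpin cells. Esrrb, a nuclear receptor of the naive network, was at 0, 0.193 and 0.130 CPM in uninduced cells, 5.21, 3.37 and 6.01 with the Trim28 hairpin, and 11.9, 13.3 and 15.3 with the scrambled one. Its rise of 5.42 ± 0.57 (adjusted p = 3.37e-07) fell short of that in scrambled-hairpin cells by 1.47 (adjusted p = 0.000335), and the induced groups did not overlap. Tfcp2l1, another naive factor, rose by 4.07 to 22.6, 21.9 and 27.7 CPM and lay below the 37.5 to 45.3 CPM of the scrambled hairpin (-0.80, adjusted p = 0.000947). Alpl, the alkaline phosphatase used to stain early colonies, rose by 3.59 to 10.2 to 11.3 CPM and was lower by 1.02 than with the scrambled hairpin (adjusted p = 1.75e-05). Dppa5a, an RNA-binding protein of stem cells, had 2 reads against 83, a ratio of 39.2 (10.5 to 329), and lay 1.64 below the scrambled-hairpin level (adjusted p = 0.000299). Lefty2, an inhibitor of Nodal signalling, had 1 against 44 reads, a ratio of 41.5 (7.08 to 1680). It stood at 0.571, 0.887 and 1.17 CPM beside 3.57, 6.16 and 5.91 with the scrambled hairpin, a difference of -2.54 (adjusted p = 1.09e-05). Dnmt3b, the de novo DNA methyltransferase, rose by 2.58 and was 0.76 lower than with the scrambled hairpin (adjusted p = 0.00196).

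Zfp42, whose protein Rex1 is a marker of the naive state, had 0 reads in uninduced cells, 0.635, 0.710 and 1.34 CPM with the Trim28 hairpin and 2.11, 2.76 and 3.45 with the scrambled one. It was thus at least 14.2-fold above uninduced cells and lower than with the scrambled hairpin by 1.62 (adjusted p = 0.00795). Its promoter is shown because it holds the octamer ATGCAAAT, the sequence that Oct4 binds, in capitals here on the opposite strand and 186 bases before the start. The window runs from 250 bases before to 50 after the RefSeq start on the minus strand of GRCm38.p6 at chr8:43306960-43307259.
Zfp42: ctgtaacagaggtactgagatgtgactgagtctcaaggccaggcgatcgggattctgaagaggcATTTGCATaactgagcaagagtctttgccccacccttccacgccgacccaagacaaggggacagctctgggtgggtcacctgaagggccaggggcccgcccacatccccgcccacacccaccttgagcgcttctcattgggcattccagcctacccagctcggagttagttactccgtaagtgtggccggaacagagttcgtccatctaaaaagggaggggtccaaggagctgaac
On either strand 1.74% of all RefSeq promoters of this length hold the octamer. The match describes the sequence and no binding was measured.

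In all, 12 of the 32 tested pluripotency genes were lower with the Trim28 than with the scrambled hairpin and 1, Gdf3, was higher. Over all tested genes 24.9% differed between the hairpins, 11.8% lower and 13.1% higher with the Trim28 hairpin. The calls of 4 of the 12 were lost when scrambled-hairpin replicate 3 was left out, at adjusted p = 0.169 for Sall1, 0.204 for Utf1, 0.0751 for Fbxo15 and 0.0555 for Lefty1. Those of Sall1 and Utf1 were also lost without Trim28-hairpin replicate 2 (0.0791 and 0.0688) or 3 (0.0823 and 0.0953), and that of Utf1 without replicate 1 (0.0609). Gdf3, a TGF-beta family ligand, was at 2.41, 1.596 and 2.04 CPM against 0.702, 0.972 and 1.101 with the scrambled hairpin (1.11, adjusted p = 0.0127), a call lost without Trim28-hairpin replicate 1 (adjusted p = 0.0623) or scrambled-hairpin replicate 1 (0.052).

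Of the 32 tested members, 6 were not called higher. Tbx3 and Mycn, which fibroblasts also express, were not called (adjusted p = 0.616 and 0.18). Klf2, a factor of the naive network, was at 11.1, 9.90 and 7.96 CPM in uninduced and 12.9, 13.1 and 13.4 in Trim28-hairpin libraries. Its groups did not overlap, and its change of 0.44 ± 0.19 missed the threshold narrowly (adjusted p = 0.0535). It was called higher under 7 of 15 alternatives, among them RLE factors (adjusted p = 0.0404), DESeq2 (0.0301), the 2 groups alone (0.00469), the replicate block (0.0261) and without uninduced replicate 1 (0.0377). Klf5, a factor that many epithelia also use, fell by 0.81 ± 0.19 (adjusted p = 0.00144), and Lefty1 fell by 1.14 ± 0.25 (adjusted p = 0.000658). The 10 members below the filter had few reads throughout. Dppa2 and Dppa4, partners that open late pluripotency genes, had 1 read each in uninduced and 0 reads in Trim28-hairpin libraries. Nr0b1, Tcl1, Nodal, Otx2, Dppa3 and Eras had 0 reads in uninduced and 13, 10, 7, 20, 3 and 4 in Trim28-hairpin libraries, and Prdm14 and Fgf5 had 1 and 12 against 6 and 6. For these 10 no change could be tested at this depth.

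**Figure D2:**
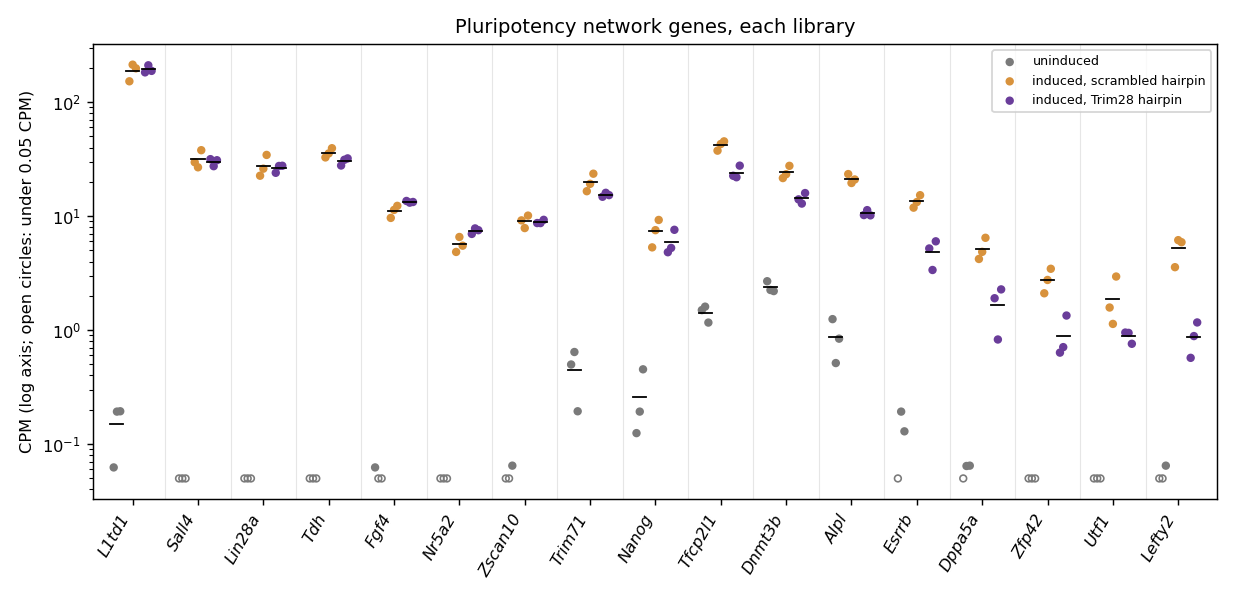
CPM of 17 pluripotency genes on a log axis, 1 point per library, for uninduced (grey), scrambled-hairpin induced (orange) and Trim28-hairpin induced cells (purple); bars are means where all 3 libraries had reads, and open circles are libraries under 0.05 CPM. Genes at the left lie close together for the 2 hairpins, and Esrrb, Dppa5a, Zfp42 and Lefty2 at the right stay lower with the Trim28 hairpin.

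Epithelial genes changed uniformly. All 40 members of the simple epithelium list were tested and rose, each at least 2-fold, where 15% of all tested genes rose that far. Their median was 6.39 when unread genes were set at their bound, and the lowest rise was 1.21. Of the 40, 3 had no read in uninduced cells and passed the filter on low counts only through groups where they were read. Their summed level was 189 to 210 CPM in uninduced and 3850 to 4300 CPM in Trim28-hairpin libraries. Krt8, a keratin of simple epithelia, went from 0.937, 0.386 and 0.712 to 937, 1099 and 1014 CPM, a rise of 10.53 ± 0.19 (adjusted p = 1.37e-16). Cdh1, the adhesion protein E-cadherin, went from 5.62, 6.30 and 6.41 to 371, 412 and 387 CPM, by 6.00 ± 0.13 (adjusted p = 1.8e-15). Both groups kept far apart in every library. The tight junction gene Cldn4 rose by 9.97 ± 0.22, the membrane protease gene St14 by 6.03 ± 0.14 and Dsp, the desmosome anchor of keratin filaments, by 4.47 ± 0.11. Esrp1, the splicing regulator of epithelial isoforms, had 0 reads in uninduced cells and 43.9, 46.7 and 49.8 CPM in Trim28-hairpin cells, at least 734-fold more. In these genes no difference between the hairpins was called (adjusted p = 0.133 to 0.726), though for Cldn4 one was without scrambled-hairpin replicate 2 (-0.31, adjusted p = 0.0182).

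Of the 40 simple epithelium genes 16 were lower with the Trim28 than with the scrambled hairpin and 0 were higher, against 11.8% and 13.1% of all tested genes. The median difference was small, -0.30. Krt7, a keratin of ducts and trophoblast, had the largest of these differences. It was at 5.81, 5.27 and 5.37 CPM in uninduced, 10.3, 12.2 and 15.6 in Trim28-hairpin and 50.2, 46.2 and 73.6 in scrambled-hairpin cells. Its rise was 1.21 ± 0.21 (adjusted p = 7.56e-05), short of that with the scrambled hairpin by 2.16 (adjusted p = 1.71e-07). Dsg2, a desmosomal cadherin, rose by 5.49 ± 0.30 to 13.4 to 16.1 CPM, but was at 38.4 to 44.6 CPM with the scrambled hairpin (-1.49, adjusted p = 2.38e-06).

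Genes of stratified epithelium, as in skin, rose too, 17 of the 19 tested, with a median of 5.68, where 34.1% of all tested genes rose. Among the 20 listed, 2 had no read in uninduced cells. Krt14, the keratin of basal skin cells, rose by 9.24 ± 0.15 (adjusted p = 5.63e-17) from 0.874, 0.643 and 1.101 to 497, 580 and 520 CPM. Krt17, a keratin of activated skin, rose by 11.56 ± 0.20 and Krt16 by 7.65 ± 0.12. Trp63, the factor that defines the basal layer, went the other way, from 5.50, 4.31 and 4.14 to 1.40, 1.24 and 0.876 CPM, a fall of 1.99 ± 0.28 (adjusted p = 1.16e-05), and 1.63 below scrambled-hairpin cells (adjusted p = 0.000604). Keratins of skin thus rose while the basal factor Trp63 fell. Pkp1, a desmosomal plaque protein, rose by 4.41 and Krt6b, a keratin of wounded skin, was unread in uninduced cells and at 17.5, 17.7 and 22.4 CPM with the Trim28 hairpin. Both lay below the scrambled-hairpin level, by 1.08 (adjusted p = 7.28e-06) and 1.57 (adjusted p = 9.83e-06). In the whole list 11 of the 19 tested genes were lower and 1 higher with the Trim28 than with the scrambled hairpin. The median difference was -0.39, and 11.8% of all tested genes were lower and 13.1% higher.

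The highest gains in level included genes outside these lists. Itgb4, the integrin of hemidesmosomes, rose by 4.84 ± 0.10 (adjusted p = 7.88e-16), from 42.3, 41.7 and 34.6 to 1073, 1174 and 1137 CPM. Msln, the surface protein mesothelin, rose by 2.56 ± 0.062 to 1230, 1306 and 1271 CPM. Both stood above the scrambled-hairpin level, of 673 to 804 CPM for Itgb4 and 782 to 828 CPM for Msln, by 0.59 (adjusted p = 6.48e-05) and 0.67 (adjusted p = 4.93e-07). Aldh3a1, an aldehyde dehydrogenase abundant in corneal epithelium, rose by 4.30 ± 0.10, and Tgm2, a transglutaminase, by 4.19 ± 0.10.

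Genes unread in uninduced cells numbered 212 of those tested. A gene unread there passes the filter on low counts only through groups where it is read, so its direction was largely fixed by the filter and the counts are a description. Of the 212, 210 were called higher, 171 stood at least 10-fold and 33 at least 100-fold above the limit that 0 reads allow. No tested gene was unread in the Trim28-hairpin libraries. The farthest was Them5, an acyl-CoA thioesterase of mitochondria, with 64.7, 72.6 and 68.6 CPM, at least 1080-fold higher. It was at 7.84, 8.26 and 13.0 CPM with the scrambled hairpin, so the hairpins differed by 2.80 (adjusted p = 1.12e-08) without overlap. Prss32, a serine protease, was at least 701-fold higher and Zbtb32, a zinc finger repressor, at least 481-fold higher, and neither differed detectably between hairpins (adjusted p = 0.953 and 0.347).

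The fibroblast programme fell in most of its members but was not lost. Of its 61 genes 50 fell, 5 rose and 6 were not called, with a median change of -0.73, and 13 fell at least 2-fold. Among all tested genes 32.6% fell and 34.1% rose, and 8.17% fell at least 2-fold. Their summed level was 95300 to 103000 CPM in uninduced and still 52700 to 57800 CPM in Trim28-hairpin libraries. All 6 fibrillar collagen genes and 13 of the 14 mesenchymal factors fell.

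Fn1, the matrix protein fibronectin and the gene with the largest loss in level, went from 20440, 19910 and 17730 to 10600, 10670 and 10020 CPM, a fall of 0.89 ± 0.079 (adjusted p = 4.46e-08). Col1a1, a chain of the main fibrillar collagen, fell by 0.86 ± 0.15 and Col1a2, its partner chain, by 0.77 ± 0.10. Lox, which cross-links collagen, fell by more than the other genes of this list, from 3327, 3275 and 3591 to 654, 583 and 634 CPM. Its change of -2.45 ± 0.078 (adjusted p = 1.03e-13) went beyond that in scrambled-hairpin cells, which were at 1157, 1172 and 1022 CPM, by 0.84 (adjusted p = 5.56e-07). Snai2, a repressor of epithelial genes, fell by 1.61 ± 0.11 to 18.2 to 23.8 CPM, and the metalloproteinase inhibitors Timp2 and Timp3 by 1.47 ± 0.091 and 1.48 ± 0.069. Among the 5 members that rose were the surface enzyme gene Nt5e, by 2.46 ± 0.11, and Ly6c1, by 0.70 ± 0.070.

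Between the hairpins the fibroblast list split, with 16 of 61 genes higher and 21 lower with the Trim28 hairpin. Of all tested genes 13.1% were higher and 11.8% lower. Some genes fell with the Trim28 hairpin for which no change from uninduced cells was called with the scrambled one (adjusted p = 0.0862 for Col3a1 and 0.296 for Pdgfra). Col3a1, a fibrillar collagen of soft tissue, was at 4656, 4323 and 4516 CPM in uninduced, 4508, 3110 and 3698 in scrambled-hairpin and 1718, 1333 and 1549 in Trim28-hairpin cells. The last group lay below both others, by 1.55 ± 0.13 against uninduced cells (adjusted p = 1.95e-08) and by 1.30 against the scrambled hairpin (adjusted p = 1.75e-06). Pdgfra, the platelet-derived growth factor receptor of mesenchyme, went from 289, 276 and 303 to 130, 96.6 and 113 CPM and stayed at 228 to 307 CPM with the scrambled hairpin. Its fall was -1.35 ± 0.12 (adjusted p = 7.04e-08) and the difference between hairpins -1.21 (adjusted p = 2.85e-06). Fmod, the collagen-binding protein fibromodulin and no member of the list, was among the largest falls of all genes, from 318, 274 and 290 to 33.5, 20.1 and 24.1 CPM (-3.51 ± 0.21, adjusted p = 2.6e-10), and it lay 1.14 below its scrambled-hairpin level (adjusted p = 0.000544). Dcn, the small proteoglycan decorin, behaved otherwise: it was at 117 to 142 CPM in uninduced and 110 to 124 CPM in Trim28-hairpin cells, overlapping levels, but at 231 to 233 CPM with the scrambled hairpin (-0.97, adjusted p = 1.6e-07).

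Several of the largest falls by ratio were in genes of lower level than Fmod. Wnt16, a Wnt ligand, went from 10.2, 9.19 and 9.45 to 0.762, 0.769 and 0.467 CPM (-3.84 ± 0.31, adjusted p = 1.31e-08). Ednrb, an endothelin receptor, went from 19.9, 22.4 and 19.9 to 1.65, 1.66 and 1.81 CPM (-3.60 ± 0.14, adjusted p = 1.82e-12). Ppbp, a platelet chemokine precursor, fell by 3.52 ± 0.25 and Cxcl15, another chemokine, by 4.51 ± 0.40. Ppbp lay below its scrambled-hairpin level by 2.41 (adjusted p = 5.86e-06). In Cxcl15 the hairpins did not differ detectably (adjusted p = 0.125), and its Trim28-hairpin libraries held 6 reads in all.

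Contractile genes of smooth muscle, which activated fibroblasts share, fell mostly, and many fell less than with the scrambled hairpin. Of the 15 tested, 12 fell, 1 rose and 2 were not called, with a median change of -0.58, where 32.6% of all tested genes fell. Between the hairpins 10 were higher with the Trim28 than with the scrambled hairpin and 1 lower, against 13.1% and 11.8% of all genes. Their summed level was 7160 to 7580 CPM in uninduced, 4870 to 5580 in Trim28-hairpin and 3410 to 3700 in scrambled-hairpin libraries. Tagln, which encodes the actin-binding protein transgelin, was at 844, 925 and 887 CPM in uninduced, 774, 736 and 651 in Trim28-hairpin and 336, 337 and 338 in scrambled-hairpin cells. It fell by 0.30 ± 0.081 (adjusted p = 0.004, or 0.0501 when scaled by library size alone) and was 1.096 above the scrambled-hairpin level (adjusted p = 9.74e-08). Cnn1, the actin-binding protein calponin, was at 75.4, 81.3 and 73.0 CPM against 103, 96.6 and 75.9, overlapping ranges. Its change of 0.26 ± 0.11 (adjusted p = 0.0424) passed only narrowly: the adjusted p was 0.216 and 0.139 without Trim28-hairpin replicate 1 or 2, 0.0955 and 0.109 without uninduced replicate 1 or 3, 0.0912 with upper-quartile factors and 0.0547 with limma-voom. With the scrambled hairpin Cnn1 was at 34.2 to 38.4 CPM, and the difference between hairpins was 1.35 (adjusted p = 2.97e-07). Lmod1, a nucleator of actin filaments, lay between the 2 other groups, at 34.6 to 38.5, 18.2 to 21.4 and 9.26 to 10.1 CPM in uninduced, Trim28-hairpin and scrambled-hairpin cells. Myh11, the smooth muscle myosin heavy chain, was 1.66 ± 0.15 below uninduced cells (adjusted p = 7.3e-08) yet 0.76 above the scrambled hairpin (adjusted p = 0.00531).

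Acta1, the actin of skeletal muscle, is a member of the separate skeletal muscle list. It was at 19.99, 22.3 and 15.1 CPM in uninduced, 26.2, 27.7 and 25.5 in Trim28-hairpin and 13.5, 9.32 and 9.56 in scrambled-hairpin cells. Its rise was 0.47 ± 0.14 (adjusted p = 0.00867) and its difference between hairpins 1.29 (adjusted p = 1.09e-05). Its promoter is shown for the CArG box, the element bound by serum response factor in many actin and contractile genes, which starts 73 bases before the start site and is in capitals. The window is on the minus strand of GRCm38.p6 at chr8:123894726-123895025, with RefSeq's sequence.
Acta1: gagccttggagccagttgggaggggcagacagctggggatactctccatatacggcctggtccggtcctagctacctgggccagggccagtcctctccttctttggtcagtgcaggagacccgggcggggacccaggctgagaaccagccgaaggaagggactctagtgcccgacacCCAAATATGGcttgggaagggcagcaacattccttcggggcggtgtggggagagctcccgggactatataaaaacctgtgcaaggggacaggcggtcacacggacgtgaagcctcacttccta
A CArG box is in 1.63% of all promoters of this length. This motif was added after the values were seen.

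In TGF-beta signalling, which drives matrix and contractile genes in fibroblasts, 15 of 20 genes fell, 2 rose and 3 were not called. Their median change was -0.40, and 32.6% of all tested genes fell. All 4 ligand genes fell. Of the receptors, Tgfbr3 fell by 1.42 ± 0.14 (adjusted p = 1.08e-07), from 135 to 147 to 44.1 to 57.1 CPM, and Tgfbr2 by 1.00 ± 0.082 (adjusted p = 1.83e-08). Both were below their scrambled-hairpin levels, by 0.87 (adjusted p = 0.00018) and 0.47 (adjusted p = 0.00049). Thbs1, the matrix protein thrombospondin 1, which activates latent TGF-beta, went from 9822, 10010 and 9379 to 5513, 5001 and 4631 CPM, a fall of 0.95 ± 0.091, and lay 0.96 above the 2346 to 2946 CPM of the scrambled hairpin (adjusted p = 1.28e-06). Skil, an inhibitor of Smad proteins, rose by 1.07 ± 0.11 (adjusted p = 1.65e-07), with a difference between hairpins of 0.17 (adjusted p = 0.252).

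**Figure D3:**
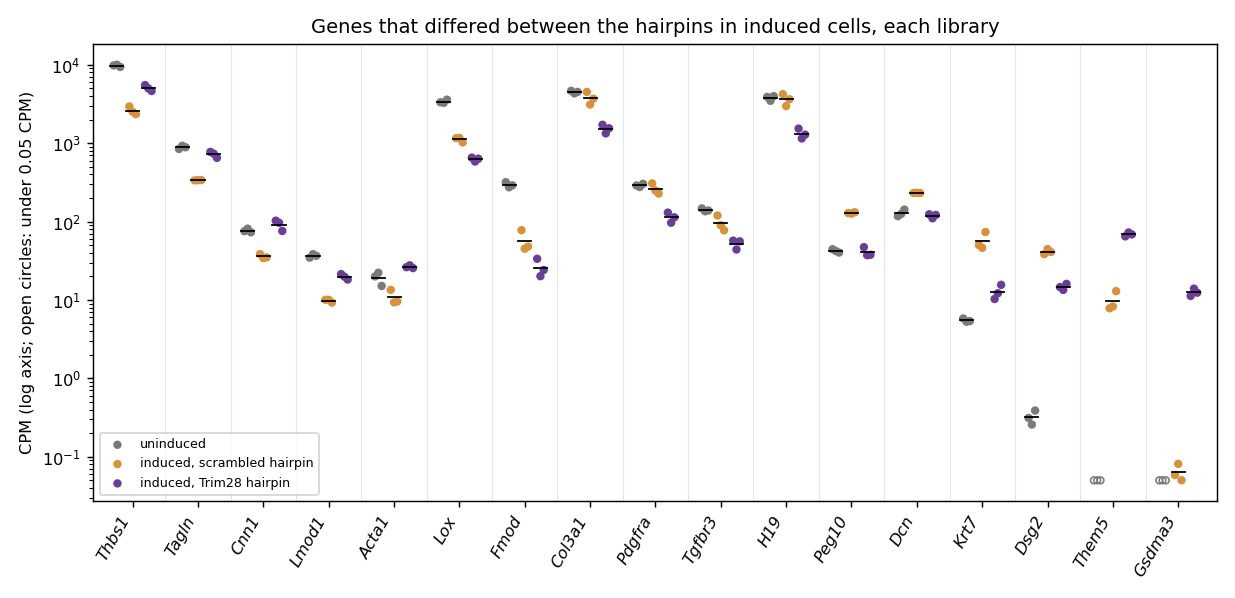
CPM on a log axis of 17 genes chosen for a difference between the hairpins in induced cells, 1 point per library, for uninduced (grey), scrambled-hairpin induced (orange) and Trim28-hairpin induced cells (purple); bars are means where all 3 libraries had reads, and open circles are libraries under 0.05 CPM. Thbs1, Tagln and Cnn1 are nearer to uninduced cells with the Trim28 hairpin, Lox, Col3a1, Pdgfra and H19 are lower than in both other groups, and Them5 and Gsdma3 are higher than in both.

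BMP signalling, a relative of the TGF-beta pathway that favours the early epithelial step of reprogramming, had 6 genes that rose, 9 that fell and 1 not called of 16. Of all tested genes 34.1% rose and 32.6% fell. The ligand Bmp6 rose by 3.40 ± 0.17 (adjusted p = 2.18e-11), from 1.19, 1.61 and 1.101 to 12.1, 14.5 and 14.7 CPM, above the 3.89 to 4.51 CPM of the scrambled hairpin (1.67, adjusted p = 1.97e-07). The ligand Bmp2 rose by 2.30 ± 0.16 to 8.51 to 10.6 CPM, below the 16.1 to 17.7 CPM of the scrambled hairpin (-0.82, adjusted p = 0.000105). Bmp6 and Bmp2 thus differed between the hairpins in opposite directions. The response gene Id1 rose by 0.42 ± 0.097 (adjusted p = 0.0011) and was 0.80 above the scrambled hairpin (adjusted p = 1.72e-05). Grem1, an antagonist of BMP ligands, fell by 1.71 ± 0.11 (adjusted p = 9.35e-10), from 1303 to 1567 to 418 to 442 CPM. Between the hairpins 8 of the 16 genes were higher and 3 lower with the Trim28 hairpin, against 13.1% and 11.8% of all tested genes. The count of 8 was 4 without Trim28-hairpin replicate 1 or 3 or scrambled-hairpin replicate 1. It was 3 without Trim28-hairpin replicate 2 or scrambled-hairpin replicate 3.

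Among AP-1 and immediate early genes, whose products occupy fibroblast enhancers, 7 of 15 rose, 4 fell and 4 were not called. Of all tested genes 34.1% rose and 32.6% fell. Atf3 rose by 1.33 ± 0.090 and Fosb by 1.20 ± 0.17, while Egr2 fell by 1.80 ± 0.12 and Fosl2 by 0.79 ± 0.070. Fosb was at 57.0, 50.9 and 53.4 CPM in uninduced, 140, 114 and 116 in Trim28-hairpin and 269, 166 and 177 in scrambled-hairpin cells, with a difference between hairpins of -0.73 (adjusted p = 0.00371). Between the hairpins 4 members were higher, 4 lower and 7 not called, where 13.1% of all tested genes were higher and 11.8% lower. Without Trim28-hairpin replicate 1 or scrambled-hairpin replicate 3 the count of 4 higher members was 0. It was 1 without Trim28-hairpin replicate 2, and 2 without Trim28-hairpin replicate 3 or scrambled-hairpin replicate 2.

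Cell cycle genes rose by modest amounts in most members. For DNA replication 24 of 29 genes rose, 1 fell and 4 were not called, with a median of 0.69, and for mitosis 21 of 22 rose, 0 fell and 1 was not called, with a median of 0.77. Over all genes 34.1% rose. Mybl2, a factor that drives mitotic genes, rose by 2.90 ± 0.13 (adjusted p = 1.26e-11), from 7.56, 8.04 and 7.70 to 55.9, 56.6 and 60.9 CPM. Mcm10 rose by 1.92 ± 0.14, and the replicative helicase subunits Mcm6 and Mcm5 by 1.22 ± 0.088 and 1.12 ± 0.082. E2f1, a factor of the G1 to S transition, fell by 0.56 ± 0.12 (adjusted p = 0.000542).

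Of the mitotic kinases, Aurka went from 16.3, 13.95 and 17.5 to 45.3, 45.0 and 44.6 CPM, a rise of 1.499 ± 0.12 (adjusted p = 1.72e-08). Plk1 went from 22.5, 20.9 and 18.7 to 44.3, 43.2 and 44.4 CPM, a rise of 1.09 ± 0.093 (adjusted p = 2.89e-08). Their groups did not overlap. Both promoters are shown because they hold the letters TTTGAA, the cell cycle homology region through which many genes of the G2 and M phases are repressed in resting cells. It is in capitals, 30 bases after the start of Plk1 and 32 after that of Aurka. The RefSeq windows are at chr7:122159185-122159484 on the plus strand and chr2:172370521-172370820 on the minus strand of GRCm38.p6.
Plk1: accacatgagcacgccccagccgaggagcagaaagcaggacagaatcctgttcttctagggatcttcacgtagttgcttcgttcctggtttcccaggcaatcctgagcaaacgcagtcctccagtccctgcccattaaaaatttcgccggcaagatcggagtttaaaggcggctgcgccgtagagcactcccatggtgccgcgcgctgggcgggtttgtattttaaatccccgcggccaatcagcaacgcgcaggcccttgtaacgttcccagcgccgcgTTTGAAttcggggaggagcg
Aurka: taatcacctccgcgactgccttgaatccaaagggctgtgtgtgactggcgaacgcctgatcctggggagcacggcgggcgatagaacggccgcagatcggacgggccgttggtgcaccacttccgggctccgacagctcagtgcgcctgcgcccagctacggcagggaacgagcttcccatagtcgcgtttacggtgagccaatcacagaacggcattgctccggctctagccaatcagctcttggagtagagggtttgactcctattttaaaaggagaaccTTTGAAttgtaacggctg
These 6 letters are in 17.9% of all promoters of this length, on either strand, so a match is common.

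Many cell cycle genes were lower with the Trim28 than with the scrambled hairpin. In each list 16 genes were lower with the Trim28 hairpin and 0 higher, with median differences of -0.24 and -0.32. Among all tested genes 11.8% were lower and 13.1% higher. The replication count was 6 without Trim28-hairpin replicate 1 or scrambled-hairpin replicate 3 and 7 without Trim28-hairpin replicate 2, and the mitosis count was 10 without scrambled-hairpin replicate 3. Cdc6, which loads the helicase, rose by 1.12 ± 0.12 to 12.4 to 13.6 CPM beside 19.12 to 24.8 CPM with the scrambled hairpin (-0.78, adjusted p = 6.29e-05). Ccnb1, the mitotic cyclin B1, rose by 0.93 ± 0.099 and was 0.48 lower than with the scrambled hairpin (adjusted p = 0.00131). Rrm1, the large subunit of ribonucleotide reductase, was at 112 to 128 CPM in uninduced and 107 to 119 CPM in Trim28-hairpin cells, overlapping, and at 164 to 188 CPM with the scrambled hairpin (-0.66, adjusted p = 5.54e-06).

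Of 26 genes for p53 targets and CDK inhibitors 17 fell, 3 rose and 6 were not called. Their median change was -0.40, and 32.6% of all tested genes fell. Cdkn2b, the CDK inhibitor p15 known as a barrier to reprogramming, fell by 1.45 ± 0.088 (adjusted p = 3.64e-10), from 97.7, 96.8 and 93.9 to 31.7, 36.8 and 36.8 CPM, with a difference between hairpins of 0.07 (adjusted p = 0.639). Btg2, an antiproliferative p53 target, rose by 0.64 ± 0.056 (adjusted p = 3.63e-08) from 285, 285 and 303 to 456, 457 and 446 CPM. It was at 256 to 267 CPM with the scrambled hairpin, 0.78 lower (adjusted p = 5.43e-08). Between the hairpins 7 of the 26 genes were higher and 1 lower with the Trim28 hairpin, against 13.1% and 11.8% of all tested genes. The count of 7 was 4 without scrambled-hairpin replicate 3.

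In glycolysis 5 of 19 genes rose, 7 fell and 7 were not called, with a median of -0.04, which is near the shares of all genes. The glucose transporter gene Slc2a3 rose by 4.01 ± 0.13 (adjusted p = 1.77e-13), from 4.81, 4.50 and 4.597 to 76.9, 72.8 and 75.1 CPM, and hexokinase Hk2 by 1.19 ± 0.098. The enzymes Eno2, Tpi1 and Pgk1 fell by 1.101, 0.33 and 0.34. Against the scrambled hairpin 14 glycolysis genes were lower and 1 higher, where 11.8% and 13.1% of all genes were. Pgk1 was at 246 to 258 CPM in uninduced, 285 to 328 with the scrambled and 194 to 206 with the Trim28 hairpin, so its 2 induced groups lay on opposite sides of uninduced cells (-0.64, adjusted p = 3.17e-06). The higher gene was Ldhb, a lactate dehydrogenase subunit, at 48.4 to 55.8 CPM in uninduced, 54.4 to 59.5 with the Trim28 and 27.1 to 34.3 with the scrambled hairpin (0.90, adjusted p = 3.86e-06).

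In threonine, serine and glycine metabolism, which mouse pluripotent cells depend on, 5 of 15 genes rose, 6 fell and 4 were not called, again near the shares of all genes. Between the hairpins 7 were lower and 1 higher with the Trim28 hairpin, against 11.8% and 13.1% of all genes, with a median difference of -0.39. Gldc, the glycine decarboxylase, rose by 4.44 ± 0.32 (adjusted p = 3.43e-09), from 0.687, 0.964 and 0.906 to 14.7, 17.4 and 23.8 CPM, above the 7.54 to 11.96 CPM of the scrambled hairpin (0.98, adjusted p = 0.00303). Aldh1l2, a mitochondrial folate enzyme, fell by 1.97 ± 0.073 (adjusted p = 6.81e-13), from 134, 133 and 136 to 35.9, 33.5 and 33.2 CPM, with 79.5 to 89.6 CPM with the scrambled hairpin (-1.30, adjusted p = 3.13e-09). All 3 serine synthesis genes fell, among them Psat1 by 0.33 ± 0.057 and Psph by 0.49 ± 0.089.

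Among regulators of DNA and H3K9 methylation 11 of 17 genes rose, 1 fell and 5 were not called. Their median change was 0.50, and 34.1% of all tested genes rose. Tet2, which oxidises methylated cytosine, rose by 2.02 ± 0.10 (adjusted p = 3.02e-11), from 35.4, 37.3 and 35.3 to 137, 154 and 146 CPM. Uhrf1, the partner of the maintenance methyltransferase, rose by 1.22 ± 0.095 and Dnmt1 itself by 0.72 ± 0.057. Dnmt3a rose by 0.50 ± 0.074 (adjusted p = 1.65e-05) and was 0.45 lower than with the scrambled hairpin (adjusted p = 0.000214).

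Imprinted genes, which are read from 1 parental copy, mostly fell: 18 of 27 fell, 8 rose and 1 was not called. Their median change was -0.59, and 32.6% of all tested genes fell. Their summed level was 11900 to 12800 CPM in uninduced, 5840 to 6830 in Trim28-hairpin and 8600 to 11100 in scrambled-hairpin libraries. Between the hairpins 10 were lower and 5 higher with the Trim28 hairpin, against 11.8% and 13.1% of all genes. H19, a long non-coding RNA of the Igf2 locus, was at 3895, 3470 and 3982 CPM in uninduced, 1535, 1150 and 1284 in Trim28-hairpin and 4221, 2974 and 3634 in scrambled-hairpin cells. The Trim28-hairpin libraries were below all 6 others, by 1.52 ± 0.13 against uninduced cells (adjusted p = 3.05e-08) and by 1.45 against the scrambled hairpin (adjusted p = 6.47e-07). Peg10, a retroelement-derived gene, was at 44.4, 42.1 and 40.2 CPM in uninduced and 47.2, 37.3 and 37.7 in Trim28-hairpin cells, overlapping (adjusted p = 0.598), but at 128, 126 and 132 CPM with the scrambled hairpin (-1.66, adjusted p = 1.22e-09). Phlda2, a placental growth repressor, rose by 5.27 ± 0.50 to 3.13 to 3.85 CPM and was at 7.13 to 11.9 CPM with the scrambled hairpin (-1.42, adjusted p = 0.000126). Rtl1, another retroelement-derived gene, rose by 8.16 ± 0.24 (adjusted p = 4.05e-14), from 0.187, 0.0643 and 0.259 to 45.9, 58.1 and 48.3 CPM. It was 0.33 above the scrambled hairpin (adjusted p = 0.0411), a call lost without Trim28-hairpin replicate 2 (0.257) or 3 (0.0738) or scrambled-hairpin replicate 1 (0.151) or 2 (0.0507). The largest difference of the list toward the Trim28 hairpin, in Zdbf2, a gene named here after its values were seen, was 1.34 (adjusted p = 0.000376), beside a rise of 1.35 over uninduced cells. Meg3, Plagl1 and Ndn fell by 1.08, 1.42 and 1.28, with no detected difference between hairpins (adjusted p = 0.271 to 0.637).

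Of 22 germline genes 21 were in the table and only 5 passed the filter. Piwil2, a PIWI protein of the piRNA pathway, rose from 0.312, 0.322 and 0.647 to 120, 119 and 126 CPM, by 8.14 ± 0.22 (adjusted p = 1.6e-14), above the 57.1 to 69.5 CPM of the scrambled hairpin (0.91, adjusted p = 2.61e-05). The piRNA pathway gene Tdrd9 rose by 3.17 ± 0.26 to 2.63 to 3.13 CPM and was 1.36 above the scrambled hairpin (adjusted p = 0.000114). The related Tdrd1 rose by 3.53 ± 0.32 and its difference between hairpins of 0.89 (adjusted p = 0.00788) was lost without Trim28-hairpin replicate 2 (adjusted p = 0.057). Tdrkh fell by 0.93 ± 0.21. Most of the pathway was thus too low to test.

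Interferon response genes, which answer to viral and retroelement nucleic acids, had 9 members that rose, 11 that fell and 10 not called of 30, with a median of -0.14, shares near those of all genes. Between the hairpins 10 were higher and 1 lower with the Trim28 hairpin, against 13.1% and 11.8% of all genes. Oas2, a sensor of double-stranded RNA, went from 0.4996, 0.386 and 0.194 to 4.25, 4.43 and 5.02 CPM, a rise of 3.63 ± 0.31 (adjusted p = 2.66e-08), with 0.760 to 1.80 CPM with the scrambled hairpin (1.78, adjusted p = 4.16e-05). H2-K1, a class I histocompatibility gene, rose by 0.89 ± 0.075 (adjusted p = 2.6e-08), from 56.1 to 59.6 to 100 to 110 CPM, while scrambled-hairpin cells were at 51.6 to 60.2 CPM (0.89, adjusted p = 3.38e-07). B2m, which encodes the light chain of class I molecules, fell by 0.86 ± 0.068 (adjusted p = 1.06e-08), so the 2 chains moved in opposite directions. H2-K1 is one of a family of near-identical genes, and its counts are uncertain for that reason.

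**Figure D4:**
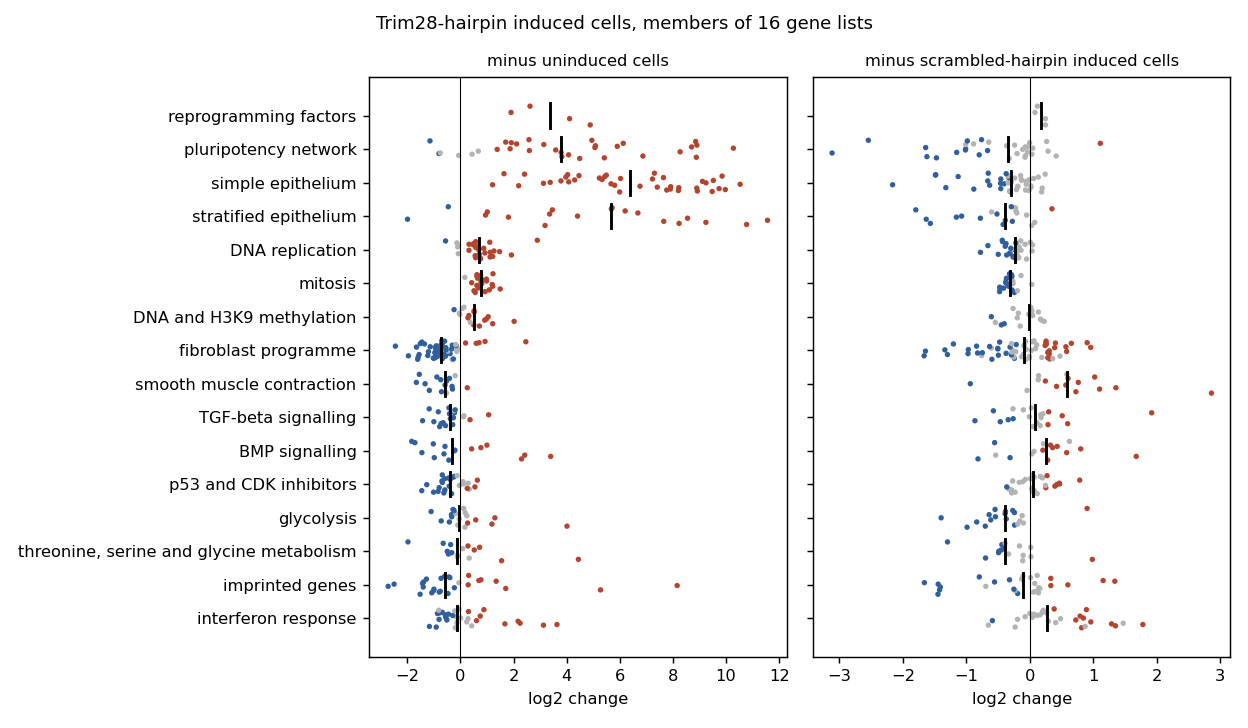
Log2 changes of the tested members of 16 gene lists, Trim28-hairpin induced minus uninduced cells (left) and minus scrambled-hairpin induced cells (right); points are genes, red called higher, blue called lower and grey not called, black bars are medians, and genes unread in uninduced cells are at their lower bound on the left. Epithelial and pluripotency genes lie far to the right of 0 on the left, fibroblast genes mostly to the left, and on the right the smooth muscle median is above 0 and the glycolysis and mitosis medians are below it.

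A few genes had few or no reads in uninduced cells and were far higher with the Trim28 than with the scrambled hairpin. Gsdma3, a pore-forming gasdermin of skin, had 0 reads in uninduced cells, 0.0585, 0.0810 and 0.0501 CPM in scrambled-hairpin cells and 11.2, 13.95 and 12.4 CPM with the Trim28 hairpin, at least 197-fold above uninduced cells. It differed between hairpins by 7.52 (adjusted p = 1.99e-09). Ceacam10, an adhesion protein of the carcinoembryonic family, was at least 162-fold higher, at 10.2 to 10.5 CPM, against 0 to 0.292 CPM with the scrambled hairpin. Scn10a, a sodium channel of sensory neurons, had 1 read in uninduced cells and stood at 32.0, 44.2 and 38.1 CPM with the Trim28 hairpin, a ratio of 1800 (322 to 71000), and at 0.819 to 1.30 CPM with the scrambled one (5.28, adjusted p = 9.87e-11). Dnah6, an axonemal dynein, had 4 reads in uninduced cells and rose by 5.73 ± 0.47 to 4.70 to 5.09 CPM, against 0, 0 and 0.2002 CPM with the scrambled hairpin. Cdhr2, a cadherin of the intestinal brush border, had 1 read in uninduced cells and was at 5.38 to 5.59 CPM, a ratio of 259 (46 to 10300), against 0.0501 to 0.0810 CPM with the scrambled hairpin. All 3 Trim28-hairpin libraries held reads of each. These genes belong to unrelated tissues.

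The reverse pattern, genes read with the scrambled hairpin and nearly absent with the Trim28 hairpin, included Hand1, a factor of trophoblast and heart. It had 0 reads in uninduced cells, 0.571, 0.591 and 0.350 CPM with the Trim28 hairpin and 9.41, 10.9 and 19.9 with the scrambled one (-4.74, adjusted p = 5.42e-06). Car9, a carbonic anhydrase induced by low oxygen, was lower with the Trim28 hairpin than in both other groups, at 0.254, 0.118 and 0.292 CPM, against 1.31, 1.16 and 0.712 in uninduced cells (-2.23 ± 0.56, adjusted p = 0.00228) and 1.78 to 5.01 with the scrambled hairpin (-3.86, adjusted p = 1.08e-05).

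Markers of other cell types were checked because 7 days of the factors can yield mixed cells. Of all tested genes 34.1% rose and 32.6% fell. A marker unread in uninduced cells passed the filter on low counts only through groups where it was read. Its direction was thus largely fixed by the filter, and the counts below are a description. Such unread markers, tested or not, were 5 of 11 for trophoblast, 1 of 8 for endothelial and 3 of 10 for neural cells. They were also 3 of 11 for primitive endoderm, 1 of 10 for blood and macrophages, 1 of 8 for skeletal muscle and 2 of 5 for adipocytes. Trophoblast markers summed to 54.6 to 58.6 CPM in uninduced, 120 to 126 in Trim28-hairpin and 219 to 249 in scrambled-hairpin libraries, with 4 of 7 tested genes higher and 0 lower. Tead4 rose by 2.64 to 64.2 to 68.5 CPM, and Elf5, a defining factor of trophoblast stem cells, from 0 reads to 7.81 to 10.5 CPM. Primitive endoderm markers fell in sum from 1150 to 1170 to 578 to 634 CPM, mainly through Col4a1, Dab2 and Pdgfra, which fibroblasts also express. Of the 7 tested, 3 rose and 4 fell. Of the 3 factors tested, 2 rose, Gata4 by 5.04 ± 0.42 to 3.75 to 6.07 CPM, and 1 fell by 1.41. Endothelial markers summed to 14.6 to 17.2 CPM in uninduced, 73 to 78 in Trim28-hairpin and 53.7 to 64.9 in scrambled-hairpin libraries. In this list 4 of 7 tested genes rose, 1 fell and 2 were not called, with a lowest change of -0.84. Tek rose by 3.03 ± 0.13 and Tie1 from 0 reads to 6.56 to 7.53 CPM. Blood and macrophage markers summed to 8.42 to 9.07, 59.7 to 68.5 and 61.5 to 70.7 CPM in the same order, and 3 of 5 rose, mainly Laptm5, by 7.44 ± 0.18 to 45.1 to 51.6 CPM, while Lyz2 of macrophages fell by 2.39 ± 0.34. Neural markers summed to 240 to 275, 427 to 468 and 384 to 485 CPM, and 5 of 7 rose, among them Mbp (4.96 ± 0.16) and Tubb3 (2.86 ± 0.13), and Map2 fell by 1.07 ± 0.10. Skeletal muscle markers summed to 17.3 to 23.9, 30.2 to 31.9 and 14 to 17.6 CPM, and adipocyte markers to 36.1 to 45.6, 9.08 to 12 and 9.66 to 11.6 CPM. All 3 tested adipocyte markers fell, and Pparg, the factor of fat cells, was 1.61 below scrambled-hairpin cells (adjusted p = 0.000135). The part of such cells in the results above was not tested. Of 2 nuclear RNAs used here as markers of RNA quality, Neat1 fell by 0.55 ± 0.070 (adjusted p = 3.06e-06). The other was not called, with a change of -0.011.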

How the data were processed

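RNA of 12 libraries was sequenced and the deposited values are whole-number read counts per gene, made by the authors with TopHat2 2.0.12, Bowtie 1.1 and HTSeq, per the submitters' processing notes. No genome build or strand setting is named in those notes, so overlapping and antisense genes cannot be told apart. Groups and replicate numbers came from the sample titles. The test was edgeR 4.0.16's quasi-likelihood test under R 4.3.3 (glmQLFit and glmQLFTest, TMM factors, 1 term per group over all 12 libraries, so the 4 groups share 1 estimate of the spread), after edgeR's filter (minimum count 10, minimum total 15), which left 14520 of 24207 genes. Floors use 3 counts over a group, and ratios with 1 to 3 reads have 95% exact intervals; both cover counting error only. On simulated counts for 14520 genes, 45 of 50 genes raised 2-fold, 41 of 50 halved ones, 50 of 50 raised 4-fold and 45 of 50 lowered 4-fold were recovered, with 9 false calls. In that simulation few genes changed, as many up as down, while 66.6% changed in the data. It therefore does not test the scaling or the rate of false calls under so many changes.

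The genes named are all members of the factor, hairpin target and pluripotency lists, the 10 largest rises and falls and the 10 largest gains and losses in CPM, up to 4 members per other list by smallest p in the main direction and 2 in the other, up to 2 per list by smallest p between hairpins, and the 8 largest differences between hairpins in each direction; the text describes part of them, and a few are not reported here. The comparison, lists and rule were chosen with earlier results of these data known. Alternatives were RLE, upper-quartile and no composition factors, other filters, DESeq2 1.42.0, limma 3.58.1 (voom), only the groups compared, a replicate block, and each library left out. Promoters from RefSeq (GRCm38.p6) matched 11162 of the tested genes (76.9%), so motif shares were not compared between gene sets.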

Additional observations from a re-analysis of the deposited data

How the results depend on the processing

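Under 15 alternatives the count of genes that rose stayed between 4192 and 5816 and of those that fell between 3778 and 5175. Library sizes alone moved the median of all genes from -0.0124 to 0.1 and the share of calls that were rises from 51.1% to 60.6%. Of the gene values recomputed, 6849 kept their side of the threshold, and 160 lost and 61 gained a call. Among values called in either setting, 0 changed direction. A change of direction in a value called in neither setting was not counted. Leaving out 1 library at a time gave 3 to 6 BMP genes and 0 to 4 AP-1 genes higher with the Trim28 than with the scrambled hairpin, 6 to 17 DNA replication and 10 to 19 mitosis genes lower, and 4 to 7 p53 and CDK inhibitor genes higher. With a minimum count of 50, 2 endothelial and 3 neural markers rose, since fewer genes were tested. For the other changes the cause was not tested. Same-numbered uninduced and Trim28-hairpin libraries did not deviate together (correlations -0.0103, -0.0113 and -0.044). These values gave no sign of pairing, but with 3 libraries per group they cannot exclude shared handling, on which the labels are silent. With the replicate block 4979 genes rose and 4763 fell. Same-numbered Trim28-hairpin and scrambled-hairpin libraries had correlations of 0.158, 0.061 and 0.0955, not all over 0.1, and Trim28-hairpin replicate 2 correlated best with another number (0.0861). With the block 2012 genes were higher and 1852 lower between hairpins, against 1909 and 1711. Genes under about 1 CPM rest on few reads, and for Dppa2, Dppa4 and the untested germline genes no change was detectable at this depth.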
